A study of Mus musculus with 10 samples.

Results

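A set of 10 genes of the heat shock and endoplasmic reticulum (ER) chaperone systems were followed in mouse bladder, out of 55536 genes counted. They were chosen by name: Hspa1a, Hspa1b, Hspa8, Hsph1, Dnajb1, Hsp90aa1 and Hspb1 of the cytosol, Hspa5 and Hsp90b1 of the ER, and Ddit3, a transcription factor of the ER stress response. All 10 had counts in every library and passed the filter on low counts in every comparison. RNA sequencing was done on polyadenylated RNA of 4 WT, 3 OMD-/- and 3 PRELP-/- bladder libraries, to compare each knockout of a secreted small leucine-rich proteoglycan with WT. The study's text describes both knockouts as constitutive, with the coding exons exchanged for a β-galactosidase gene that is driven by the promoter of the targeted gene, and no treatment was given. The labels give the strain of all libraries as C57BL/6 and the study's text gives C57BL/6J. The labels speak of homogenised bladder tissue whereas the study speaks of bladder epithelium. Age, sex, and whether each library came from a separate mouse are not given in the sources used here, so the p-values measure the spread between libraries only.

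HSP70 proteins hold unfolded stretches of other proteins and release them on hydrolysing ATP. J-domain proteins such as Dnajb1 bring them their substrates, nucleotide exchange factors such as Hsph1 reset them, HSP90 proteins act on partly folded clients, and small heat shock proteins such as Hspb1 hold unfolded proteins without ATP. In the cytosol and nucleus, misfolded protein or heat frees the transcription factor HSF1, which binds inverted repeats of a short unit upstream of the inducible chaperone genes. In the ER, the sensors IRE1, PERK and ATF6 are held inactive by Hspa5 (BiP), and once released they raise ER chaperones through XBP1 and cleaved ATF6, which act at the ER stress element, and Ddit3 (CHOP) through ATF4. Epithelial and fibroblast cells that secrete much protein, as collagen-producing fibroblasts do, carry a large ER folding machinery without being stressed.

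The upstream sequences of the members separated by these elements, and those that carry a match are shown so that the 2 kinds of genes can be told apart in the results. RefSeq windows on GRCm38.p6 were matched by symbol for 8 of the 10 members, and Hspa8 and Hsp90aa1 had no entry. In the 250 bases before the most upstream RefSeq transcript start, the heat shock pair (GAANNTTC or TTCNNGAA, each its own reverse complement) was found for 4 of these 8 members and in 12.8% of all 32851 windows. The ER stress element, searched on both strands as CCAAT and CCACG with 9 bases between them, was found for 2 of the 8 and in 0.113% of all windows. Neither was found for Dnajb1 or Ddit3, and TGATGNAA, the composite site bound by ATF4 with C/EBP proteins and held by 3.45% of all windows, was found for none of the 8. These matches describe letters in a window and not binding.

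The stretches below are printed 5′ to 3′ on the strand of the gene, in capitals where a motif was matched. Hspb1 holds the heat shock pair at positions -117 and -97 counted back from the start, Hspa1b at -104 and Hsph1 at -33. Hspa5 holds the ER stress element at -65, and Hsp90b1 holds it at -212 and, on the other strand, at -107. The window of Hspa1a differed from that of Hspa1b at 3 of 250 bases (98.8% identity) and carried the same match. For Hsph1 and Hspa5 only 30 bases around the match are given and Hsp90b1 is cut at base -66, because the part of each window nearest the start, which for Hsph1 and Hspa5 includes the match, lies inside the longest GENCODE gene model.
Hspa1b, chr17:34959239-34959488, minus strand: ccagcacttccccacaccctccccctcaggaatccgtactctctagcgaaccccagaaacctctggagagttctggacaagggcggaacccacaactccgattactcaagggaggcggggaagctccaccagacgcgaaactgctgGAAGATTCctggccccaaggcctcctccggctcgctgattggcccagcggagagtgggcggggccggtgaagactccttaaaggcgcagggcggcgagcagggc
Hspb1, chr5:135887669-135887918, plus strand: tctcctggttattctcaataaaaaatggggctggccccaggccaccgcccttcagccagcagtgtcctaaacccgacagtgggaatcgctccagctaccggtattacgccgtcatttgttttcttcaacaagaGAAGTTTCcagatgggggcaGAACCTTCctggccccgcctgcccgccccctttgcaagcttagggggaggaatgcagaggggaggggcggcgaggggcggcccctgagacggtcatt
Hsph1, chr5:149636351-149636380, minus strand: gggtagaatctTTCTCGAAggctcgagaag
Hspa5, chr2:34772020-34772049, plus strand: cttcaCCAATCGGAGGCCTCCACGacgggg
Hsp90b1, chr10:86705510-86705694, minus strand: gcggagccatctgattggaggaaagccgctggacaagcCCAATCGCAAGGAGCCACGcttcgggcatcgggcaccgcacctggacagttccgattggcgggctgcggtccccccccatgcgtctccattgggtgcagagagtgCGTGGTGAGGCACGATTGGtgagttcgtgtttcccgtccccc

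**Figure D1:**
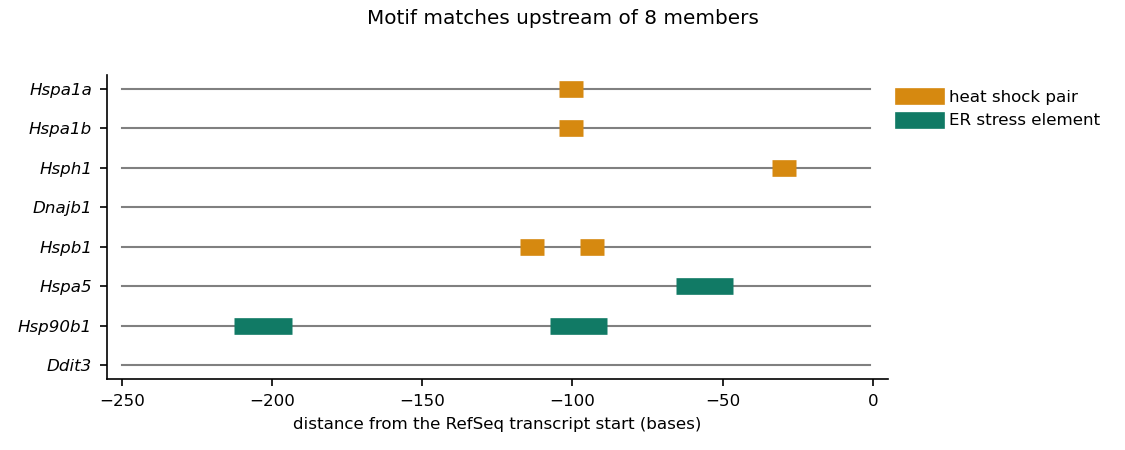
Positions of motif matches in the 250 bases upstream of the RefSeq start of 8 members, with the distance from the start in bases on the horizontal axis and 1 line a gene. Heat shock pairs (orange) lie upstream of Hspa1a, Hspa1b, Hsph1 and Hspb1, and ER stress elements (green) upstream of Hspa5 and Hsp90b1.

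Several libraries stood apart before any member was considered. Gene-assigned counts ran from 20391437 to 46269079 a library. Prelp lay at 215 to 317 CPM (counts scaled to library size with TMM factors) in WT and at 1.84 to 4.2 CPM in PRELP-/-, whereas Omd had no count in OMD-/- but also at most 0.532 CPM in WT, too low to check the OMD-/- label. WT replicates 1 and 2 carried 163 to 189 CPM of 4 Y-linked genes and at most 5.64 CPM of Xist, and WT replicates 3 and 4 carried at most 0.0443 CPM of the Y-linked genes and 1020 to 1227 CPM of Xist. The same libraries differed in the summed level of 6 smooth muscle markers, 296 to 311 CPM in replicates 1 and 2 and 1037 to 1178 CPM in replicates 3 and 4, and of 5 endothelial markers, 305 to 310 and 143 to 156 CPM. OMD-/- replicates 1 to 3 carried 18.1, 0.806 and 0.731 CPM of the Y-linked genes and 38.2, 88.8 and 76.6 CPM of Xist. In PRELP-/- replicates 1 to 3 these were 120, 18.8 and 18.5 CPM and 0.398, 48.6 and 55.5 CPM. The 6 umbrella cell markers of the urothelium summed to between 7786 and 19965 CPM in every library. WT also differed from both knockouts in 5 nuclear-retained long non-coding RNAs. These summed to 1443 to 1707 CPM in WT, 297 to 365 CPM in OMD-/- and 203 to 257 CPM in PRELP-/-. The bearing of this difference on the members was not tested. PRELP-/- replicate 1 stood far from the others of its group. Its mean chi-square per gene was 220 to 223 against 3.57 between replicates 2 and 3, where 1 is sampling noise. Its log2 difference from them was lower for longer genes across 16581 genes (Spearman rho = -0.494, a description). OMD-/- replicate 1 stood apart less, at 24.5 to 26.8 against 3.1 between replicates 2 and 3, with a rho of -0.271 over the same genes.

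Set per kilobase of exonic length, which allows genes to be compared, Hspa8 was the highest member in WT at 132 ± 37.9 CPM per kb (SD, n = 4). Hspa8 encodes the constitutive HSC70. Hspa5 followed at 89.3 ± 16 CPM per kb, Hspb1 at 77.0 ± 13.4 and Hsp90b1 at 73.8 ± 7.92. The spreads of these neighbours overlapped. In each of the 4 WT libraries Hspa8 was above Hspa5 and Hspa5 above Hspb1, whereas Hspb1 and Hsp90b1 changed places between libraries. Hsp90aa1 lay lower at 38.8 ± 4.55, then Dnajb1 at 23.3 ± 4.67 and Hspa1b at 18.3 ± 7.94, which overlapped each other. Hsph1 at 9.81 ± 4.09, Ddit3 at 5.88 ± 0.632 and Hspa1a at 3.83 ± 1.21 CPM per kb were lowest. For near-identical copies the counts are uncertain, since 60.3% of the 50-base words of Hspa1a and 62.3% of those of Hspa1b recur in another annotated gene, 47.5% for Hsp90aa1, 48.8% for Hspb1 and 38.6% for Hspa8, whereas Hsph1, Hspa5 and Ddit3 share none.

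In OMD-/- bladder the ER chaperones Hspa5 and Hsp90b1 and the small heat shock protein Hspb1 rose, and Ddit3 fell. With WT as reference, 4 of the 10 members passed an adjusted p of 0.05 in edgeR's quasi-likelihood test, against 29.4% of the 16647 genes tested. Of these 3 were higher, where 14.3% of all genes were, and 1 was lower, where 15.1% were. The share of members that passed was therefore near the background of this comparison, and the median log2 fold change was 0.28 over the members and -0.0002 over all genes tested. These calls take each library as a replicate. No member passed once libraries of a group that lie close together were summed, where 9.06% of all genes did. In bulk tissue, a change in the number of cells that express a gene and a change in its RNA per cell cannot be told apart.

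**Figure D2:**
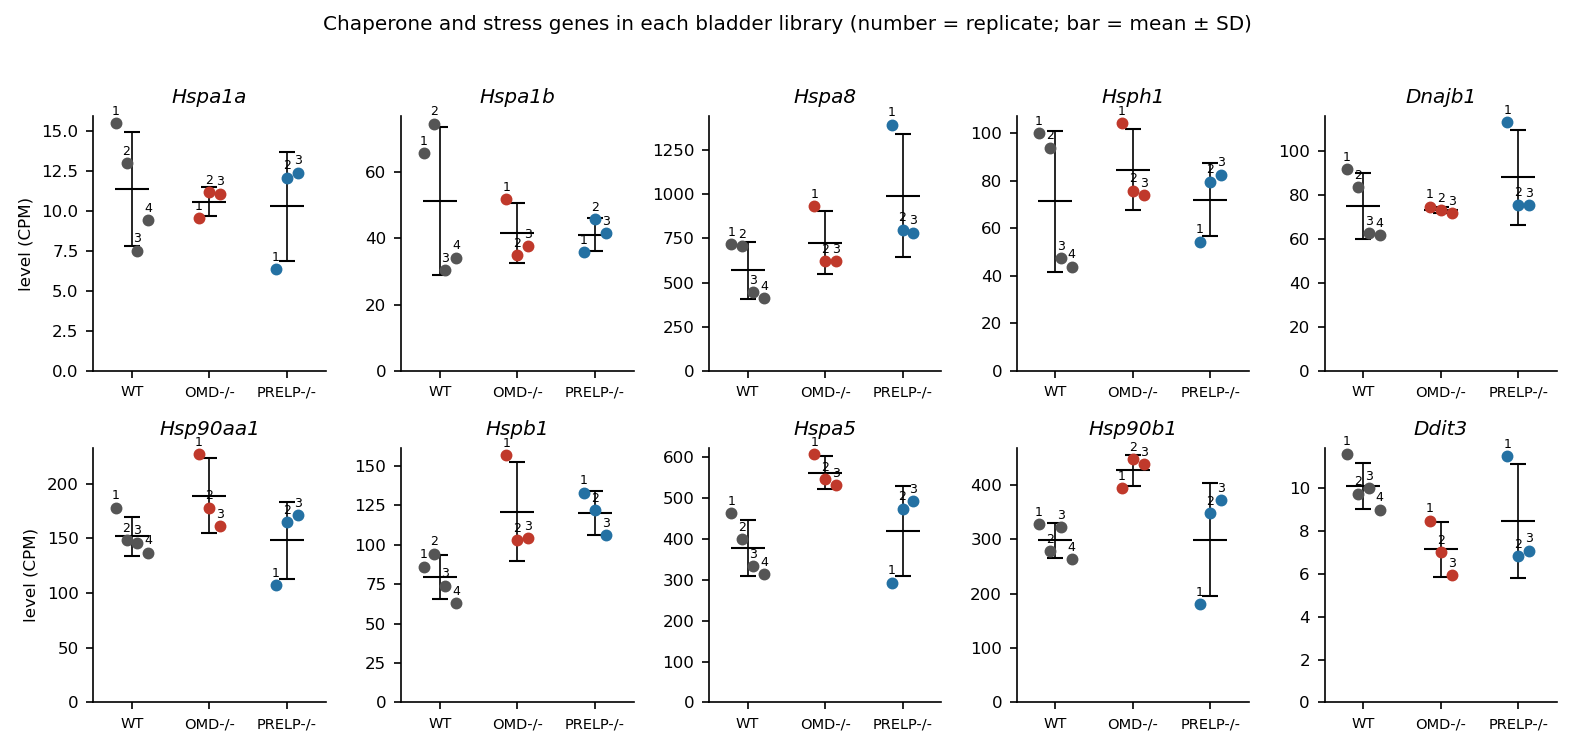
Level of each member in CPM (vertical axis, from 0) in the 4 WT, 3 OMD-/- and 3 PRELP-/- libraries; points are libraries with their replicate number, and the bar is the mean ± SD. Hspa5 and Hsp90b1 lay higher in all OMD-/- libraries than in any WT library, and Hsph1 and Hspa1b divided the WT libraries into replicates 1 and 2 and replicates 3 and 4.

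Hspa5 encodes BiP, the HSP70 of the ER lumen and the brake on its stress sensors (chr2:34771970-34777547). It measured 463, 399, 334 and 314 CPM in WT replicates 1 to 4, 608, 547 and 532 CPM in OMD-/- and 293, 474 and 492 CPM in PRELP-/- replicates 1 to 3. All OMD-/- libraries were above all WT libraries, while PRELP-/- replicate 1 was below the WT range and the other PRELP-/- libraries above it. OMD-/- exceeded WT 1.49-fold, which is 0.57 on the log2 scale (SE 0.12, adjusted p = 0.00659, edgeR). It was 0.38 (adjusted p = 0.0169) with WT replicates 1 and 2 alone as reference and 0.79 (adjusted p = 0.000243) with WT replicates 3 and 4 alone.

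Hsp90b1 encodes GRP94, the HSP90 of the ER, which folds integrins and Toll-like receptors among other clients (chr10:86690209-86705509). Its WT levels were 327, 278, 322 and 263 CPM, its OMD-/- levels 394, 447 and 438 CPM and its PRELP-/- levels 180, 347 and 371 CPM. OMD-/- was again above WT without overlap. Hsp90b1 was the most even of the rising members, with almost no difference between the WT pairs (mean 303 CPM in replicates 1 and 2, 293 CPM in replicates 3 and 4). Its log2 fold change in OMD-/- was 0.52 (SE 0.10, adjusted p = 0.00366, edgeR), and stayed between 0.46 and 0.58 with each library left out in turn.

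Ddit3 encodes CHOP, which promotes death of cells under lasting ER stress (chr10:127290774-127296288). It was the only member that fell. It stood at 11.6, 9.74, 10 and 8.99 CPM in WT, 8.48, 7 and 5.94 CPM in OMD-/- and 11.5, 6.81 and 7.08 CPM in PRELP-/-. The OMD-/- libraries lay below every WT library, whereas PRELP-/- replicate 1 lay within the WT range and the other PRELP-/- libraries below it. The log2 fold change in OMD-/- was -0.50 (SE 0.16, adjusted p = 0.0334, edgeR). This call was lost without WT replicate 1 (adjusted p = 0.0761), WT replicate 3 (0.067), OMD-/- replicate 2 (0.109) or OMD-/- replicate 3 (0.153). Ddit3 shares 68 exonic bases with Mars on the other strand, which had a mean of 1293.2 counts a library against 223.4 for Ddit3, and whether counting used the strand is not given in the sources used here.

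Hspb1 encodes HSP27 (HSP25 in mouse), a small heat shock protein abundant in epithelium and muscle (chr5:135887919-135889563). WT libraries held 86.1, 94.4, 74.1 and 62.9 CPM, OMD-/- libraries 157, 103 and 104 CPM and PRELP-/- libraries 133, 122 and 106 CPM. Every knockout library exceeded every WT library. OMD-/- replicate 1 was far above the other OMD-/- libraries. In OMD-/- the log2 fold change was 0.61 (SE 0.17, adjusted p = 0.0219, edgeR). It missed the threshold without WT replicate 3 (adjusted p = 0.0626), WT replicate 4 (0.053) or OMD-/- replicate 1 (0.0745, log2 fold change 0.39, a change of the value by more than 1.5 times).

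In all, 3 of 10 members had every OMD-/- library above every WT library and 1 had every one below, where 19.2% and 19.7% of all genes tested did. These were the same 4 genes that passed the test.

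For Hspa1b, Hspa1a, Hsph1 and Dnajb1 the OMD-/- libraries overlapped with WT, and the WT libraries themselves fell into pairs. Hspa1b encodes an inducible HSP70 (chr17:34956436-34959238). It stood at 65.8 and 74.7 CPM in WT replicates 1 and 2 and at 30.4 and 34.2 CPM in WT replicates 3 and 4. The OMD-/- libraries, at 51.8, 35.0 and 37.6 CPM, and the PRELP-/- libraries, at 35.8, 45.9 and 41.5 CPM, lay between these WT pairs. Against all WT libraries the log2 fold change in OMD-/- was -0.31 (SE 0.34, adjusted p = 0.537, edgeR). It was -0.76 (adjusted p = 0.00793) against WT replicates 1 and 2 and 0.36 (adjusted p = 0.108) against WT replicates 3 and 4.

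Hspa1a, the neighbouring near-copy of Hspa1b (chr17:34969190-34972156), was much lower, at 15.5, 13.0, 7.53 and 9.44 CPM in WT, 9.57, 11.2 and 11.1 CPM in OMD-/- and 6.36, 12.1 and 12.4 CPM in PRELP-/-. The WT pairs again spanned the OMD-/- libraries. Its log2 fold change in OMD-/- was -0.11 (SE 0.22, adjusted p = 0.746, edgeR). It passed as lower against WT replicates 1 and 2 (-0.43, adjusted p = 0.0481) and stood at 0.32 (adjusted p = 0.129) against WT replicates 3 and 4. Since reads can be split between these copies, their counts were also summed, which gave a log2 fold change of -0.27 in OMD-/- (adjusted p = 0.546) and -0.30 in PRELP-/- (adjusted p = 0.567).

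Hsph1 encodes HSP110, the exchange factor that resets HSP70 (chr5:149614287-149636376). Its WT libraries read 99.9, 93.8, 47.5 and 43.8 CPM, its OMD-/- libraries 104, 75.7 and 73.8 CPM and its PRELP-/- libraries 54.3, 79.5 and 82.4 CPM. WT replicates 1 and 2 were 2.12 times WT replicates 3 and 4. The log2 fold change in OMD-/- was 0.24 with a 95% interval from -0.51 to 1.0 (adjusted p = 0.614, edgeR), -0.20 (adjusted p = 0.341) against WT replicates 1 and 2, and 0.89 (adjusted p = 0.00177) against WT replicates 3 and 4.

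Dnajb1 encodes HSP40, the J-domain partner of inducible HSP70 (chr8:83608193-83612653). It had close OMD-/- values, 74.5, 73.0 and 71.5 CPM, which fell between WT replicates 1 and 2 at 91.4 and 83.4 CPM and WT replicates 3 and 4 at 62.6 and 61.6 CPM. PRELP-/- replicate 1 stood out at 113 CPM, with 75.5 and 75.2 CPM in the others. Over all WT libraries the log2 fold change in OMD-/- was -0.036 (SE 0.13, adjusted p = 0.866, edgeR). It passed as lower against WT replicates 1 and 2 (-0.26, adjusted p = 0.033) and as higher against WT replicates 3 and 4 (0.23, adjusted p = 0.0384).

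Hspa8 (HSC70, chr9:40800984-40810087) measured 716, 704, 445 and 412 CPM in WT, 931, 620 and 622 CPM in OMD-/- and 1393, 800 and 783 CPM in PRELP-/-. WT replicates 1 and 2 overlapped with OMD-/-, and all PRELP-/- libraries were above WT. The OMD-/- log2 fold change was 0.35 (SE 0.22, adjusted p = 0.277, edgeR) and passed only against WT replicates 3 and 4 alone (0.76, adjusted p = 0.00993) among the sets of WT libraries tried. Hsp90aa1 encodes the inducible cytosolic HSP90 (chr12:110690605-110702728). It stood at 178, 148, 146 and 137 CPM in WT, 227, 178 and 161 CPM in OMD-/- and 107, 165 and 171 CPM in PRELP-/-. OMD-/- overlapped only with WT replicate 1, and its difference on the log2 scale, 0.31 (SE 0.12, adjusted p = 0.081, edgeR), passed without that replicate (0.39, adjusted p = 0.04).

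Across the WT libraries alone, replicates 1 and 2 were both above replicates 3 and 4 in 8 of the 10 members, against 32.0% of the genes tested, and the median ratio of their means was 1.37 for the members and 1.01 for all genes. The ratio was 2.17 for Hspa1b, 2.12 for Hsph1, 1.68 for Hspa1a, 1.66 for Hspa8 and 1.41 for Dnajb1. Hsp90b1 and Ddit3 were the members without this order, with ratios of 1.04 and 1.12. The Y-linked and Xist RNA and the smooth muscle and endothelial markers given above moved with these pairs. Their part in the difference was not tested.

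Which WT libraries served as reference thus decided what was called among the members. With WT replicates 1 and 2 alone, 6 members passed in OMD-/- (26.3% of all genes), 2 of them higher. With WT replicates 3 and 4 alone, 7 passed (39.8% of all genes), all 7 higher. Hspa5 and Hsp90b1 passed as higher with either reference. No member passed once libraries that lie close together within a group were summed to leave 2 a group (9.06% of all genes), 1 passed with all 3 groups in the fit, Hspb1 (14.7% of all genes), and 7 passed with the level of Y-linked genes as a covariate (38.9% of all genes).

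**Figure D3:**
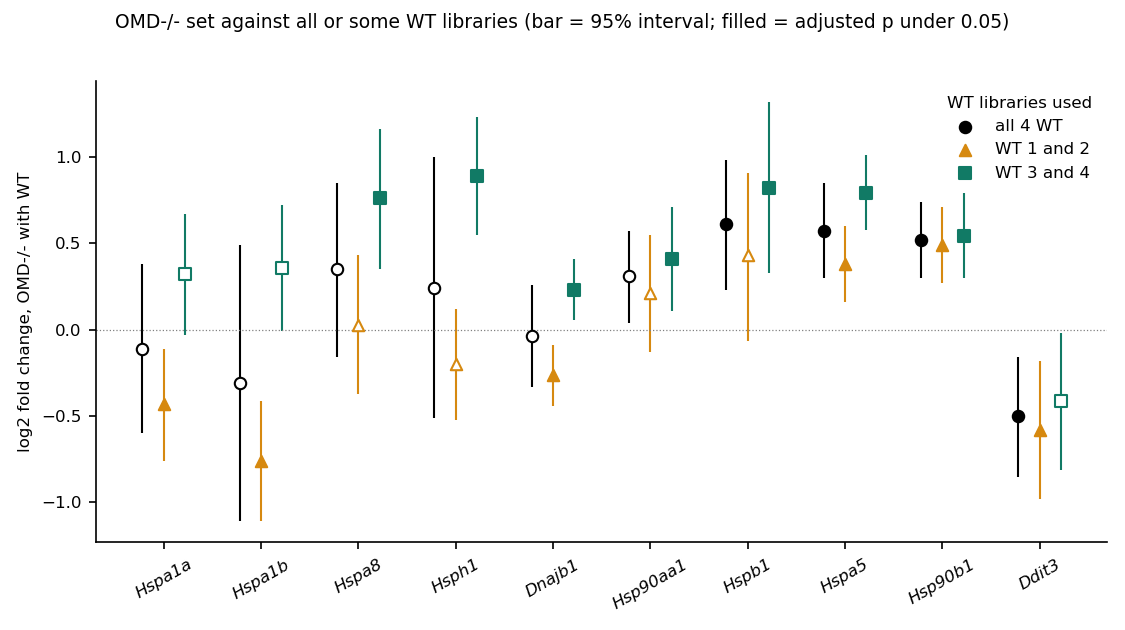
Log2 fold change of each member in OMD-/- with its 95% interval (vertical axis), taken against all 4 WT libraries (black circles), WT replicates 1 and 2 (orange triangles) or WT replicates 3 and 4 (green squares); filled symbols have an adjusted p under 0.05. Hspa5 and Hsp90b1 keep filled symbols above 0 with every reference, and Dnajb1 goes from -0.26 to 0.23.

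In PRELP-/- bladder no member passed the test with WT. Hspb1 came nearest, with a log2 fold change of 0.58 and an adjusted p of 0.077 (edgeR, SE 0.17). Hspa8 had a larger difference of 0.78 and an adjusted p of 0.131 (SE 0.29). Of all 16581 genes tested 7.29% passed. Without adjustment 2 members had p under 0.05, Hspb1 and Hspa8, and DESeq2 called these 2 members (12.6% of its tested genes), while limma-voom called 0. Both genes had every PRELP-/- library above every WT library, as did 13.6% of all genes, and no member had every one below, as 16.4% did.

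PRELP-/- replicate 1 widened the spread of most members. It read 1.76 times the mean of replicates 2 and 3 for Hspa8, 1.66 times for Ddit3 and 1.49 times for Dnajb1. For the ER chaperones it read less, 0.501 times for Hsp90b1 and 0.607 times for Hspa5, and Hspa1a, Hsp90aa1 and Hsph1 lay at 0.518, 0.636 and 0.671 times. Without it, 2 members passed in PRELP-/- (22.2% of all genes), Hspb1 as higher (0.53, adjusted p = 0.0349) and Ddit3 as lower (-0.53, adjusted p = 0.0351). Hspa5 was then at 0.37 (adjusted p = 0.101) and Hsp90b1 at 0.28 (adjusted p = 0.0868).

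Set directly against each other, the knockouts gave no member that passed. The count with an unadjusted p under 0.05 was 0 of 10, DESeq2 and limma-voom called 0, and 0.00633% of the 15805 genes tested passed, which is Prelp alone. The intervals left room for sizeable differences. For Hsp90b1 the log2 fold change of PRELP-/- with OMD-/- was -0.51, with a 95% interval from -1.19 to 0.17, and for Hspa5 it was -0.42, from -0.98 to 0.13. Hspa8 stood at 0.44, from -0.25 to 1.13. The closest pair of values was that of Hspa1b, at -0.017 with an interval from -0.48 to 0.45. The rise of the ER chaperones in OMD-/- is therefore not shown to differ from their levels in PRELP-/-.

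**Figure D4:**
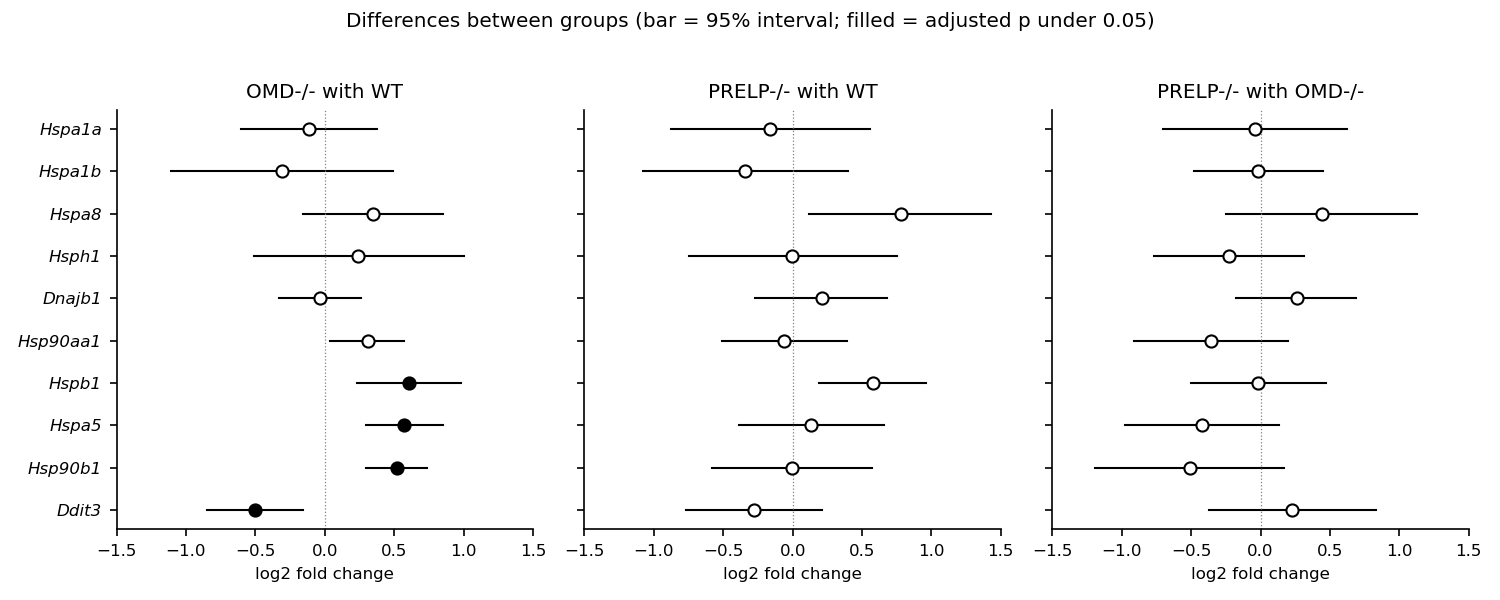
Log2 fold change of the 10 members in the 3 comparisons (horizontal axis) with 95% intervals; filled circles have an adjusted p under 0.05. Filled circles appear in the OMD-/- with WT panel only, for Hspb1, Hspa5, Hsp90b1 and Ddit3.

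Of a list of 30 further ER chaperones, folding enzymes and degradation factors, 19 passed as higher and 0 as lower in OMD-/- with WT, where 14.3% and 15.1% of all genes did, and the list median was 0.41 on the log2 scale. The other 11 did not pass, and 3 of them, Herpud1, Derl2 and Tor1a, had differences below 0. The count was 11 with all 3 groups in the fit and 10 with close libraries summed. Derl3, of the channel that exports misfolded protein, had the largest difference (1.45, SE 0.47, adjusted p = 0.0395) but lay at only 0.354 to 2.5 CPM, and missed the threshold without WT replicate 1, 2 or 4 or OMD-/- replicate 2 or 3 (adjusted p up to 0.199). Serpinh1 (HSP47), the collagen-specific chaperone, rose from 254 to 308 CPM in WT to 693 to 737 CPM in OMD-/- (1.33, SE 0.089, adjusted p = 5.69e-06). Calr, the lectin chaperone calreticulin, rose by 1.04 (SE 0.13, adjusted p = 0.000252), and Fkbp10, a prolyl isomerase acting on collagen, by 1.01 (SE 0.11, adjusted p = 0.000125). P4hb, protein disulfide isomerase and a subunit of collagen prolyl hydroxylase, rose by 0.60 (SE 0.086, adjusted p = 0.000705).

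In PRELP-/-, 4 of the 30 passed as higher and 0 as lower, where 7.29% of all genes passed in either direction, with a median of 0.37, among them Serpinh1 (0.81, adjusted p = 0.0123), P4hb (0.80, adjusted p = 0.0313) and Fkbp10 (0.69, adjusted p = 0.0234). Without PRELP-/- replicate 1 the count was 14, where 22.2% of all genes passed, and with any other of these libraries left out it was 0 to 2. Serpinh1, P4hb and Fkbp10 then missed the threshold in PRELP-/- in some fits, with adjusted p up to 0.0572, 0.106 and 0.0887. The collagen gene Col1a1 lay at 1567 to 2430 CPM in WT, 5101 to 6383 CPM in OMD-/- and 3345 to 5937 CPM in PRELP-/-. Col3a1 lay at 1852 to 2231, 4033 to 5005 and 1561 to 4182 CPM, and did not pass in PRELP-/- (adjusted p = 0.212, edgeR). PRELP-/- replicate 1 had the lowest Col1a1 and Col3a1 of its group but the highest P4hb, 1643 CPM beside 1131 and 1111 CPM. The 6 fibroblast markers include Col1a1 and Col3a1. They summed to 6136 to 6675 CPM in WT, 11933 to 14550 CPM in OMD-/- and 6708 to 13183 CPM in PRELP-/-, with none at 0. Of the 6 markers 3 passed as higher in OMD-/-, where 14.3% of all genes did, and 1 in PRELP-/-. Dcn, another of the 6, lay at 1634 to 2440 CPM in WT, 2469 to 2687 in OMD-/- and 1645 to 2708 in PRELP-/-. It passed in neither knockout (log2 fold changes 0.33 and 0.17, adjusted p = 0.115 and 0.695, edgeR). The plasma cell marker Jchain lay at 5.11 to 14.9 CPM in WT, 30 to 143 CPM in OMD-/- and 1.42 to 21.8 CPM in PRELP-/-. Their part in the ER folding result was not tested.

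The sensors and transcription factors of the unfolded protein response did not move one way. Of 23 listed genes, 6 passed as higher and 3 as lower in OMD-/-, beside 14.3% and 15.1% of all genes, where the median of the list was 0.14 on the log2 scale, and 0 as higher and 1 as lower in PRELP-/-, where it was -0.0064. Without OMD-/- replicate 3 these OMD-/- counts were 3 and 1, and without PRELP-/- replicate 1 the PRELP-/- counts were 5 and 3. Over all genes 7.29% passed in either direction in PRELP-/-, and 22.2% without its replicate 1. Atf4, which drives Ddit3 downstream of PERK, fell in both knockouts. It read 115, 108, 126 and 113 CPM in WT, 36.0, 47.9 and 47.1 CPM in OMD-/- and 37.9, 32.8 and 30.7 CPM in PRELP-/-, with no overlap. The log2 fold changes were -1.4 (SE 0.12, adjusted p = 2.52e-05) and -1.8 (SE 0.14, adjusted p = 0.000301), and they passed with each library left out in turn. Bbc3 (PUMA), a pro-apoptotic target of CHOP and p53, fell in OMD-/- by 0.66 on the log2 scale (SE 0.17, adjusted p = 0.0152, and up to 0.0738 without OMD-/- replicate 2 or 3). Creb3l1, an ER-bound factor that raises collagen secretion, rose in OMD-/- (1.15, SE 0.18, adjusted p = 0.00157), and its relative Creb3l2 (0.51, adjusted p = 0.00214) and the ER membrane protein Wfs1 (0.46, adjusted p = 0.00152) rose as well. Ddit3 and Atf4 thus fell in OMD-/- libraries in which Hspa5 and Hsp90b1 rose.

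Among 32 other cytosolic HSP70, HSP90 and HSP40 genes, co-chaperones and HSF genes, 6 passed as higher and 2 as lower in OMD-/- (median -0.011), 8 in all where 29.4% of all genes passed, and 0 passed in PRELP-/- (5 at an unadjusted p under 0.05). Bag3, an HSP70 co-chaperone that works with small heat shock proteins, rose by 0.54 (SE 0.17, adjusted p = 0.0362), Hsp90ab1, the constitutive HSP90, by 0.51 (SE 0.13, adjusted p = 0.0126) and St13, which links HSP70 to HSP90, by 0.39 (SE 0.091, adjusted p = 0.00938). Ahsa2, related to the HSP90 activator Aha1, fell by 0.73 (SE 0.19, adjusted p = 0.0153), and Cacybp, a partner of ubiquitin ligases, by 0.41 (SE 0.091, adjusted p = 0.00785). Ahsa2 shares 2137 exonic bases with Usp34 on the other strand. Ahsa2 missed the threshold without OMD-/- replicate 2 or 3 (adjusted p up to 0.0665), and Bag3 when a library other than WT replicates 1 and 2 was left out (up to 0.0996). In OMD-/- the count was 0 with all 3 groups in the fit or close libraries summed. It was 5 without WT replicate 3 or 4 and 4 without OMD-/- replicate 2 or 3. In PRELP-/- it was 7 without replicate 1, with 3 higher and 4 lower. Over all genes 7.29% passed in PRELP-/-, and 22.2% without its replicate 1, so the 7 of 32 lay near background.

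Of 5 tested small heat shock genes other than Hspb1, Cryab (0.39, SE 0.12, adjusted p = 0.0359) and Hspb8 (0.34, SE 0.079, adjusted p = 0.00857) rose in OMD-/- like Hspb1. Hspb2 (-1.03), Hspb6 (-0.89) and Hspb7 (-0.30) lay below 0 without passing, and the median of the list was -0.30. Hspb2 had a mean of only 10.2 counts a library. It shares 252 exonic bases with Cryab on the other strand, which had 298.9. Cryab missed the threshold when a library other than WT replicate 1 was left out (adjusted p up to 0.116). In PRELP-/- 0 passed, with 3 at an unadjusted p under 0.05. The 8 subunits of the cytosolic chaperonin TRiC, which folds actin and tubulin, all had positive differences in both knockouts, with 4 passing in OMD-/- (Cct7 at 0.38, Cct3 and Cct4 at 0.31, Cct2 at 0.29; median of the list 0.24) and 0 in PRELP-/- (5 at an unadjusted p under 0.05; median 0.61). The OMD-/- count was 2 without WT replicate 3 or OMD-/- replicate 1, 1 with the replicate block and 0 with all 3 groups in the fit or close libraries summed. Without PRELP-/- replicate 1 the PRELP-/- count was 5 and the median 0.28. Of 9 mitochondrial chaperone genes, Grpel2, an exchange factor, fell in OMD-/- (-0.36, SE 0.11, adjusted p = 0.0271, but up to 0.117 without WT replicate 3 or any OMD-/- library) and 0 passed in PRELP-/- (0 at an unadjusted p under 0.05). Beside these small heat shock, TRiC and mitochondrial counts, 14.3% of all genes passed as higher and 15.1% as lower in OMD-/-. In PRELP-/- 7.29% of all genes passed in either direction, and 22.2% without replicate 1. No gene of these 6 lists passed between the knockouts.

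**Figure D5:**
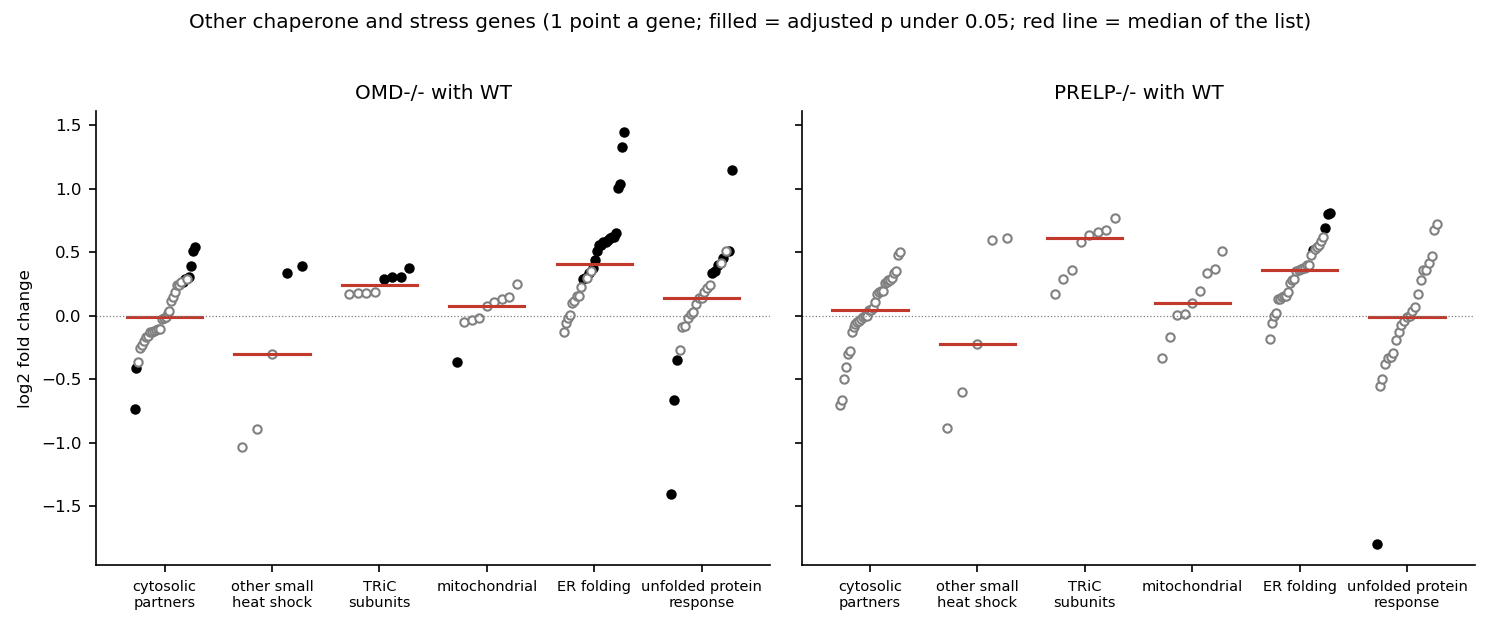
Log2 fold change (vertical axis) of the genes of 6 chaperone and stress lists in OMD-/- (left) and PRELP-/- (right) with WT; each point is a gene, filled where the adjusted p is under 0.05, and red lines are list medians. The ER folding list lies mostly above 0, with 19 filled points in OMD-/- and 4 in PRELP-/-, and Atf4 is the lowest filled point of both panels.

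The genes whose levels followed a member most closely were found by the root mean square difference of centred log2 CPM over the 10 libraries, among 11110 protein-coding genes of at least 5 mean CPM. Nearest to Hsph1, which itself varied by 0.42 around its mean, were Zfhx2 (0.126), Adcy4 (0.133), A4galt (0.152), Mast4 (0.167) and Boc (0.172). No other member or chaperone was among these 5. Nearest to Hspa5, which varied by 0.34, were Abcc4 (0.0964), the ER chaperone Hyou1 (0.0966), Card6 (0.099) and Vps8 (0.104). These distances share libraries, depth and tissue composition and carry no test.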

How the data were processed

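Reads per gene were counted by the authors for each library, and these raw counts were deposited without normalization. The file headers name HISAT2 alignments, while the submitters' processing notes list STAR 2.5.2b, featureCounts, DESeq2, GRCm38 and hg38 without roles, so aligner and strand setting are uncertain. The deposited tables of the authors' own fold changes and p-values were not used. Ensembl identifiers were paired with GENCODE vM21 symbols (GRCm38). Ddit3 was taken as the identifier that has counts.

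Groups followed the sample titles. For every comparison, only the libraries of its 2 groups entered a fit in edgeR 4.0.16 (R 4.3.3; TMM, filterByExpr, robust quasi-likelihood test, two-sided, Benjamini-Hochberg over all tested genes, threshold 0.05). Intervals are the log2 fold change ± the t quantile times its SE. CPM used TMM factors over all 10 libraries, and log2 CPM a prior count of 2. Alternatives were DESeq2 1.42.0, limma-voom 3.58.1, RLE and upper-quartile scaling, no filter, all groups in 1 fit, the replicate block, Y-linked level as covariate, summed Hspa1 copies, and each library left out. Subsets of WT libraries and summing of close libraries were added after the data were seen. The fitting code was tested on simulated data. The members and lists were chosen with earlier results of these data known. Within a list, at most 5 genes were named, those with the largest difference among genes that passed in either knockout with WT at a mean of at least 1 CPM. The nearest genes were the 5 with the smallest distance. For Hspa5, 1 of these is not reported here.

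Replicate numbers are shared between groups. Deviations of same-numbered libraries correlated at 0.39, 0.27 and 0.24 between OMD-/- and PRELP-/-, and between -0.15 and 0.19 for WT with either knockout. Libraries of different number were not compared, and replicate 1 stood apart in both knockouts. These values therefore cannot show whether libraries were paired. Close libraries (mean chi-square per gene of 3.1 for OMD-/- replicates 2 and 3, 3.57 for PRELP-/- replicates 2 and 3, 8.3 for WT replicates 3 and 4, 11.6 for WT replicates 1 and 2, 24.5 to 223 otherwise) differed by more than sampling noise. That excess cannot show whether they came from separate mice. They were kept as separate replicates in the main fits, and the fits with close libraries summed are given beside these.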

Additional observations from a re-analysis of the deposited data

How the results depend on the processing

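For OMD-/- with WT the count of members that passed was 4, and 4 with DESeq2, limma-voom, RLE or upper-quartile scaling, no filter and the replicate block, though without the filter Hsp90aa1 passed in place of Hspb1. It was 1 with all 3 groups in the fit, 7 with Y-linked level as covariate, 7 with WT replicates 3 and 4 only, 6 with WT replicates 1 and 2 only, 0 with close pairs of libraries summed, and 2 to 4 with a library left out (2 without WT replicate 3). For PRELP-/- with WT the count of 0 became 2 with DESeq2 and lay between 0 and 2 with a library left out (2 without PRELP-/- replicate 1). Between the knockouts it was 0 under every alternative run there, which left out the Y-linked covariate, and the replicate block, which raised the count over all genes from 1 to 43, changed no call on a member there. Over all genes the count in OMD-/- with WT was 4899 and fell to 2485 with all groups in the fit and to 1658 with close pairs summed; in PRELP-/- with WT it was 1209, 2542 with DESeq2, 2485 with all groups, 3807 without PRELP-/- replicate 1, 115 with the replicate block and 13 with close pairs summed; between the knockouts it was 1, and 87 with DESeq2. Of the 30 ER folding genes, 11 passed as higher in OMD-/- with all groups in the fit and 10 with close pairs summed, against 19, and in PRELP-/- 8 with DESeq2 and 0 with the replicate block, against 4. Of the 9 mitochondrial chaperone genes and of the 5 small heat shock genes 0 passed in OMD-/- with all groups in the fit or close pairs summed, against 1 and 2. Of the 23 unfolded protein response genes, 3 passed as higher and 1 as lower in OMD-/- with the replicate block. The causes were not tested.

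Log2 fold changes crossed 0 under some alternatives. In OMD-/- these were Hspa1a (0.064) and Dnajb1 (0.069) with the Y-linked covariate, Hspa1a (0.32), Hspa1b (0.36) and Dnajb1 (0.23) with WT replicates 3 and 4, and Hsph1 (-0.20) with WT replicates 1 and 2. In PRELP-/- they were, with WT replicates 3 and 4, Hspa1a (0.28), Hspa1b (0.34), Hsph1 (0.65), Hsp90aa1 (0.051) and Hsp90b1 (0.026), with WT replicates 1 and 2, Dnajb1 (-0.023) and Hspa5 (-0.061), and with close pairs summed Hspa5 (-0.0037). Hsph1 in PRELP-/- was 0.02 with DESeq2, 0.074 with limma-voom, 0.018 with RLE, 0.0019 with the upper quartile, 0.014 without the filter and 0.015 with all groups, and Hsp90b1 was 0.014 with DESeq2, 0.01 with RLE, 0.016 without the filter, 0.0084 with all groups and 0.013 with the covariate. Hspb1 between the knockouts was 0.0045 with limma-voom and 0.0048 with the replicate block. With a library left out, the ranges that crossed 0 in OMD-/- were -0.27 to 0.083 for Hspa1a and -0.12 to 0.073 for Dnajb1. In PRELP-/- they were -0.32 to 0.11 for Hspa1a, -0.18 to 0.21 for Hsph1, -0.18 to 0.15 for Hsp90aa1 and -0.19 to 0.28 for Hsp90b1, and between the knockouts -0.20 to 0.21 for Hspa1a, -0.13 to 0.17 for Hspa1b, -0.13 to 0.21 for Hspb1 and -0.038 to 0.37 for Ddit3. Depth limits Ddit3, which had a mean of 223.4 counts a library.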

Other observations

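Lists of genes outside the chaperone systems were measured in the same libraries. Of 5 nuclear-retained long non-coding RNAs, all 5 passed as lower in both knockouts with WT, with median log2 fold changes of -4.24 in OMD-/- and -4.57 in PRELP-/-. Over all genes 15.1% passed as lower in OMD-/-, and 7.29% passed in either direction in PRELP-/-. Malat1 lay at 757 to 1117 CPM in WT, 271 to 318 CPM in OMD-/- and 177 to 227 CPM in PRELP-/-, and Neat1 at 342 to 450, 13.2 to 26.3 and 15.7 to 17.7 CPM. Immediate early genes respond within minutes to handling and growth signals as heat shock genes do to heat. Of 17 such genes, 9 passed as higher and 2 as lower in OMD-/-, where 14.3% and 15.1% of all genes did. In PRELP-/- 0 passed (2 at an unadjusted p under 0.05 in edgeR), where 7.29% of all genes did. The 17 genes summed to 777 to 834 CPM in WT, 768 to 911 CPM in OMD-/- and 777 to 929 CPM in PRELP-/-.

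Among cell type markers, 4 of 6 leukocyte genes passed as higher in OMD-/-, Adgre1 and Cd68 among them, and 0 in PRELP-/-. Ptprc, at 14.1 to 22.8 CPM in WT and 12.4 to 41.5 CPM in OMD-/-, did not pass (adjusted p = 0.18, edgeR). Of the umbrella cell markers 2 of 6 passed as higher in OMD-/- and 1 of 6 in PRELP-/-. Of the basal urothelial markers 1 of 4 tested passed in OMD-/- and 0 of 5 in PRELP-/-. No smooth muscle or endothelial marker passed in either knockout. At an unadjusted p under 0.05 (edgeR), 4 of 5 endothelial markers differed in OMD-/- (median log2 fold change 0.73) and 0 in PRELP-/- (0.46). Of 6 smooth muscle markers, 0 did in OMD-/- (-0.79) and 5 in PRELP-/- (-1.64). Of the plasma cell markers 2 of 5 passed as higher in OMD-/- and 0 of 3 tested in PRELP-/-. Of 5 skeletal muscle markers, 2 were tested and 0 passed in either knockout, and Myh4 had no count in any library. Beside these marker counts, 14.3% of all genes passed as higher in OMD-/-, and 7.29% passed in either direction in PRELP-/-.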
